A study of Bos grunniens and Bos grunniens x Bos taurus with 2 samples.

Results

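The genes described here are *PROX1* (ENSBGRG00000020065), *MMRN1* (ENSBGRG00000022987), *RELN* (ENSBGRG00000009814), *PKHD1L1* (ENSBGRG00000004809), *CCK* (ENSBGRG00000018878) and *FABP7* (ENSBGRG00000010179). They were taken by symbol, are 6 of the 26961 genes of the yak annotation, and each symbol named 1 gene. The set was chosen by measured values, namely the genes' counts in lymphatic against blood endothelium and other cells of both libraries, so the levels below are a description of the genes and carry no test. Testis tissue of yak (*Bos grunniens*) and of the hybrid cattle-yak (*Bos grunniens* x *Bos taurus*), both past sexual maturity, was thawed, dissociated with collagenase, hyaluronidase and trypsin, and captured in droplets as 1 library each. The labels name no treatment, allele, age or number of animals. The paper took its yak tissue from 1 healthy, sexually mature male, whose age it states, and describes no cattle-yak. The labels call the cells germ cells, while somatic cells made up most named classes in both libraries, the endothelium below among them. With 1 library per group there is no replicate, so the comparison of both libraries is one of libraries and not of crosses, and every interval below covers counting error only.

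Lymphatic endothelium lines the vessels that drain fluid and immune cells from tissues, and it is kept apart from blood endothelium by the transcription factor *PROX1*. *MMRN1* encodes multimerin, a large secreted glycoprotein stored by platelets and endothelial cells, *RELN* encodes reelin, a secreted glycoprotein that signals through lipoprotein receptors and is made by lymphatic endothelium as well as by neurons, and *PKHD1L1* encodes a very large membrane protein named fibrocystin-L. *CCK* encodes the precursor of cholecystokinin, a peptide hormone of the gut and a neuropeptide of the brain, and *FABP7* encodes a fatty acid-binding protein best known from glia.

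The libraries held 11991 and 8930 cell barcodes with 60816600 and 43774841 counted molecules (UMIs), of which 10324 yak and 7092 cattle-yak cells met the quality limits. A total of 24 barcodes occurred in both libraries, and 0 yak and 2 cattle-yak cells among them were lymphatic. Cells were clustered without the 6 genes, and clusters were called after marker lists that hold none of them. One cluster per library was lymphatic EC-like, with 723 yak cells (7.00% of kept cells, exact binomial 95% interval 6.52 to 7.51) and 303 cattle-yak cells (4.27%, 3.81 to 4.77), at medians of 4206 and 3618 UMIs per cell. The name rested on 11 enriched lymphatic markers in the yak and 9 in the cattle-yak, among them *FLT4*, which encodes a growth factor receptor of lymphatic vessels, and the chemokine gene *CCL21*. The defining markers *LYVE1* and *PDPN* were not found under these symbols in the annotation. The pan-endothelial genes *TIE1* and *CLDN5* were enriched in both clusters, and in the yak 3 genes of the blood endothelial list (*KDR*, *EMCN* and *EFNB2*) as well. The median mitochondrial share of the lymphatic cells was 14.0% in the yak and 22.1% in the cattle-yak, against 14.3% and 19.3% in the other kept cells, and values at a stricter mitochondrial limit stand beside the differences between libraries below. In CPM, a gene's summed UMIs of a class scaled to a class total of 1000000 UMIs, the 9 muscle genes summed to 1121 in the yak and 423 in the cattle-yak lymphatic cells, and the 9 T and NK cell genes to 250.6 and 44.0. Of 3 annotated platelet genes, 2 were counted in the yak and 1 in the cattle-yak class, at 8.58 and 8.45 CPM in sum. The 10 annotated pan-endothelial genes summed to 1908 CPM in the yak and 986 CPM in the cattle-yak lymphatic cells. In cells named after the blood endothelial list they summed to 2822 and 2357 CPM.

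In both libraries *PROX1*, *MMRN1*, *RELN*, *PKHD1L1* and *FABP7* were highest in the lymphatic class, of 11 named classes in the yak and 9 in the cattle-yak. *CCK* was second to macrophage-like cells in the yak and was not counted in lymphatic cells of the cattle-yak. Each level below, in CPM, has an exact Poisson interval at 95%, and levels are compared between cells for 1 gene at a time, never between genes.

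*PROX1* stood at 216 CPM (200.6 to 232; 730 UMIs) in yak lymphatic EC-like cells and at 132 CPM (112 to 154; 156 UMIs) in those of the cattle-yak. In blood EC-like cells, named after genes such as *EMCN* and *KDR*, the level was 2.96 CPM in the yak (12 UMIs) and 0.793 CPM in the cattle-yak (3 UMIs). In T/NK-like cells, taken here as a class that should lack these genes, it was at 1.60 and 1.44 CPM. The class next to the lymphatic one was SPT-like in the yak, cells with spermatid genes, at 46.6 CPM (35.1 to 60.6), and macrophage-like in the cattle-yak, at 4.52 CPM from 2 UMIs, with intervals clear of the lymphatic level.

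*MMRN1*, the gene of a secreted glycoprotein, was counted at 2927 CPM (2870 to 2986) in the yak and at 2942 CPM (2845 to 3041) in the cattle-yak, from 9896 and 3480 UMIs. In the blood class it was at 24.9 and 14.8 CPM, and the next class stood at 132 CPM (SPG-like, with genes of spermatogonia) in the yak and 40.8 CPM (T/NK-like) in the cattle-yak. It was the member found in most single cells, with a UMI in 690 of 723 yak and 300 of 303 cattle-yak lymphatic cells.

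*RELN*, the reelin gene, had 498 CPM (475 to 523) in the yak and 522 CPM (482 to 565) in the cattle-yak lymphatic class, against 4.44 and 3.70 CPM in blood EC-like cells. *PKHD1L1* had 587 CPM (561 to 613) and 584 CPM (541 to 629), against 4.68 and 3.44 CPM. The next class of *RELN* was SPC-like, cells with spermatocyte genes, at 51.9 and 35.4 CPM, and that of *PKHD1L1* SPT-like in the yak (28.8 CPM) and pericyte-like in the cattle-yak (29.1 CPM). For both genes the intervals of the libraries overlapped in the lymphatic class, while the next classes could not be told from those after them.

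*FABP7* stood at 251 CPM (234 to 268; 848 UMIs) in the yak and at 38.0 CPM (27.7 to 50.9; 45 UMIs) in the cattle-yak, with 1.97 and 0.264 CPM in blood endothelium and 13.0 and 6.65 CPM in the next class, which was stromal-like in both. *CCK* stood at 229 CPM (213 to 246; 774 UMIs) in the yak, where 1 cell held 174 of the UMIs. The interval does not cover this uneven spread over cells. In the cattle-yak class 0 of 1183015 UMIs were *CCK*, a limit of 2.54 CPM at 3 counts, with an exact interval up to 3.12 CPM. In that library 55 UMIs in 26 cells were *CCK*, of which 33 lay in 4 macrophage-like cells and 29 in 1 of these cells. Why the lymphatic class held none was not tested.

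**Figure D1:**
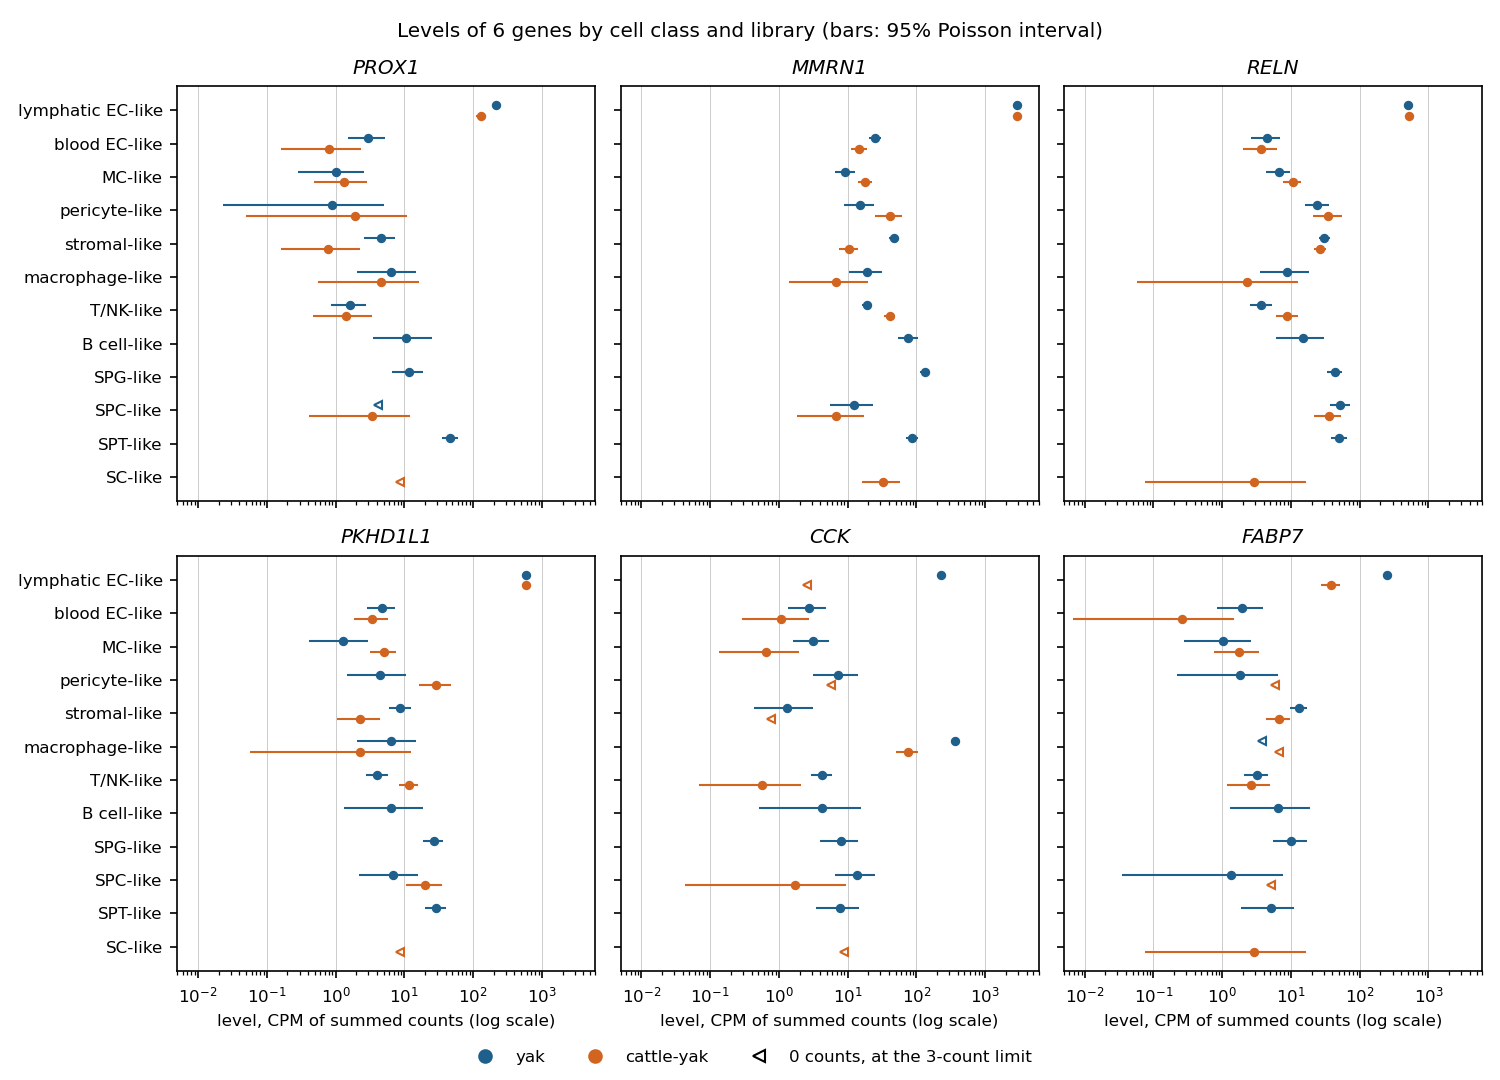
Level of each gene (x axis, CPM on a log scale) by cell class (y axis) in the yak (blue) and the cattle-yak (orange), with 95% Poisson intervals as bars and open triangles at the 3-count limit for classes with 0 UMIs. The lymphatic class lies to the right of the others in the panels of *PROX1*, *MMRN1*, *RELN*, *PKHD1L1* and *FABP7*, and in the *CCK* panel the macrophage-like class lies at 364 CPM in the yak while the cattle-yak lymphatic class has 0 UMIs.

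The ratio of the lymphatic to the blood endothelial class addresses how far each gene separates both linings, and is given on the log2 scale after adding 1 CPM to each side. Of the 6 members, 6 were at least 1 higher in the yak, where this held for 7.7% of 7606 genes with at least 50 UMIs in both classes together. Of the 4 members with as many UMIs in the cattle-yak, 4 were at least 1 higher, where this held for 4.34% of 6412 genes. The genes had been chosen for this pattern, so nothing is read from these counts.

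In the yak, *MMRN1* was higher by 6.82 (interval of the plain ratio 6.59 to 7.17), *PKHD1L1* by 6.69 (6.32 to 7.70) and *RELN* by 6.52 (6.15 to 7.57). *FABP7* was higher by 6.41, *CCK* by 5.95 and *PROX1* by 5.78. Ranked among all 7606 genes from the highest ratio, *MMRN1* was 3rd, *PKHD1L1* 5th, *RELN* 6th, *FABP7* 9th, *CCK* 17th and *PROX1* 20th. The intervals of neighbours in this order overlapped.

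In the cattle-yak the ratio was 7.54 for *MMRN1* (7.25 to 8.04), 7.04 for *PKHD1L1*, 6.80 for *RELN* and 6.21 for *PROX1* (5.80 to 9.67, resting on 3 UMIs in the blood class). These were ranks 3, 5, 8 and 11 of 6412 genes. For *FABP7*, 45 lymphatic UMIs stood against 1 in the blood class, a plain ratio of 144 with an interval from 24.5 to 5807. No ratio is given for *CCK*, with 0 and 4 UMIs.

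The endothelial cluster led by *BMX*, an arterial kinase gene, was part of the blood class in the cattle-yak (164 cells) and without a name in the yak (916 cells at a median of 1318 UMIs). Against this yak cluster the lymphatic levels were higher by 4.58 for *RELN* to 5.32 for *MMRN1*, so the genes were low there as well. When that cluster was counted as blood endothelium, the yak ratios came to 5.32 for *PROX1* and 6.06 for *MMRN1*.

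Other genes of lymphatic identity lay beside the members. Of a list of 22 annotated genes of the lymphatic programme, 15 had at least 50 UMIs in the yak comparison. Of these, 9 were at least 1 higher in the lymphatic class (7.7% of all genes) and 1 was at least 1 lower (11.3%). The median of the 15 was 2.42 against -0.06 over all genes. In the cattle-yak 8 of 13 were higher (4.34% of all genes) and 2 lower (17.2%), with a median of 2.62 against -0.38. *CCL21* was higher by 7.33 and 6.62, *FLT4* by 4.77 and 4.66, and *NRP2*, a co-receptor of *FLT4*, by 2.67 and 3.45. The transcription factor gene *NR2F2* was higher by 2.71 and 2.62, and *TEK*, the angiopoietin receptor gene, was lower in both, at -1.39 and -2.93. Several of these genes had served to name the class, so the list is no independent evidence of its direction.

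Lists of lymphatic vessel types were followed beside the members as well. Of 5 counted genes of valves and collecting vessels, 3 were at least 1 higher and 1 was lower in the yak, and 2 were higher and 1 was lower in the cattle-yak, with medians of 1.14 and -0.03. Of all genes 7.7% were as much higher and 11.3% lower in the yak, and 4.34% and 17.2% in the cattle-yak. The medians over all genes were -0.06 and -0.38. *GJA4*, a connexin gene, was at 1.14 in the yak and -1.11 in the cattle-yak, but the blood classes were unlike, since that of the cattle-yak alone held the *BMX* cluster. With that cluster counted as blood endothelium in the yak *GJA4* was at 0.32, and without it in the cattle-yak at 0.38. Of the capillary list, which also holds *RELN*, the 2 other counted genes were higher in both libraries, *CCL21* as given above and *PTX3*, a secreted pentraxin, by 5.92 and 6.82.

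*DAB1*, the adaptor that carries the reelin signal into the cell, was higher in the yak lymphatic class by 2.57 (101 against 17 UMIs) and had 6 against 0 UMIs in the cattle-yak. The receptor gene *VLDLR* was at -1.73 in the yak, from 13 against 61 UMIs, and the kinase gene *FYN* at -2.57 in the yak and -1.51 in the cattle-yak. Of the 4 genes of this pathway with enough UMIs in the yak, 1 was at least 1 higher and 2 at least 1 lower. This held for 7.7% and 11.3% of all genes. In the cattle-yak *FYN* alone had enough UMIs.

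Among genes that process peptide hormones, *PAM*, whose product amidates the end of cholecystokinin, was higher in the lymphatic class by 1.12 in the yak and by 1.46 in the cattle-yak, in which no lymphatic *CCK* was counted. *CPE*, a carboxypeptidase gene, was at 42 against 19 UMIs in the yak. In all, 2 of 5 listed genes were at least 1 higher and 0 lower in the yak, where this held for 7.7% and 11.3% of all genes. In the cattle-yak 1 of 4 was higher and 2 were lower (*PCSK5* and *TPST2*), against 4.34% and 17.2% of all genes. These counts turn on the blood class as well. With the yak *BMX* cluster in it, 1 of 5 was higher and 1 lower, with *PAM* at 1.05, *PCSK5* at -1.93 and *CPE* at -0.58, and against the *BMX* cluster alone 0 were higher and 3 lower. Shares over all genes were not taken for the comparisons with the *BMX* cluster, so nothing is read from these counts.

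*FABP5*, another fatty acid-binding protein gene, was the only relative of *FABP7* with at least 50 UMIs in this comparison. It showed the same arrangement as *FABP7*, with 908 lymphatic against 6 blood endothelial UMIs in the yak (a log2 ratio of 6.76) and 57 against 3 in the cattle-yak (4.78). *MMRN2*, the relative of *MMRN1* made by blood endothelium, was at -3.93 in the yak and -4.55 in the cattle-yak, opposite to *MMRN1*.

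Within the lymphatic class, the comparison of the libraries asks whether the 6 genes held the same level in the cattle-yak as in the yak. Over 6102 genes with at least 50 UMIs the median log2 ratio of cattle-yak to yak was -0.33. Of the 6 members, 2 were at least 1 lower in the cattle-yak, where this held for 8.78% of all genes, and 0 were at least 1 higher, where this held for 1.77%.

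*MMRN1* differed by 0.01 (-0.05 to 0.06), *PKHD1L1* by -0.01 (-0.13 to 0.12) and *RELN* by 0.07 (-0.07 to 0.20). These 3 differences lay within counting error, and 31.6% of all genes were also within 0.25 of 0. *PROX1* was lower in the cattle-yak by 0.71 on the log2 scale (interval -0.97 to -0.46), which placed it 1217th from the lowest of 6102 genes.

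*FABP7* was at -2.69 (-3.19 to -2.29), a plain ratio of 0.152, and 59th from the lowest. *CCK* was 90.3-fold lower in the cattle-yak with its level there set at the 3-count limit. This bound leaves out the counting error of the yak level, of whose 774 UMIs 1 cell held 174. The exact upper limit of 0 UMIs, 3.12 CPM, lies above the 3-count limit. With 0 UMIs and 1 CPM added, *CCK* had the lowest ratio of all 6102 genes. In cells below 20% mitochondrial share, 104 of them in the cattle-yak class, *PROX1* was at -0.63, *FABP7* at -2.30 and the bound of *CCK* at -5.35, so these genes stayed lower. With 1 library each, a difference of crosses cannot be told apart from one of animals, of dissociation or of the pieces of tissue taken.

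Genes of the same pathways gave the following values in this comparison. *FABP5* was at -2.45 (57 against 908 UMIs), near *FABP7*, and *DAB1* at -2.35 (6 against 101 UMIs). *CCL21* had 8864 cattle-yak and 4834 yak UMIs, a log2 ratio of 2.39. Of 15 lymphatic programme genes, 1 was at least 1 higher and 1 at least 1 lower, with a median of -0.24, 2 counted genes of the cholecystokinin list were within 1 of 0, and 1 of 5 valve genes was lower (*NFATC1*, at -1.23). Of all genes 1.77% were at least 1 higher and 8.78% at least 1 lower, with a median of -0.33.

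**Figure D2:**
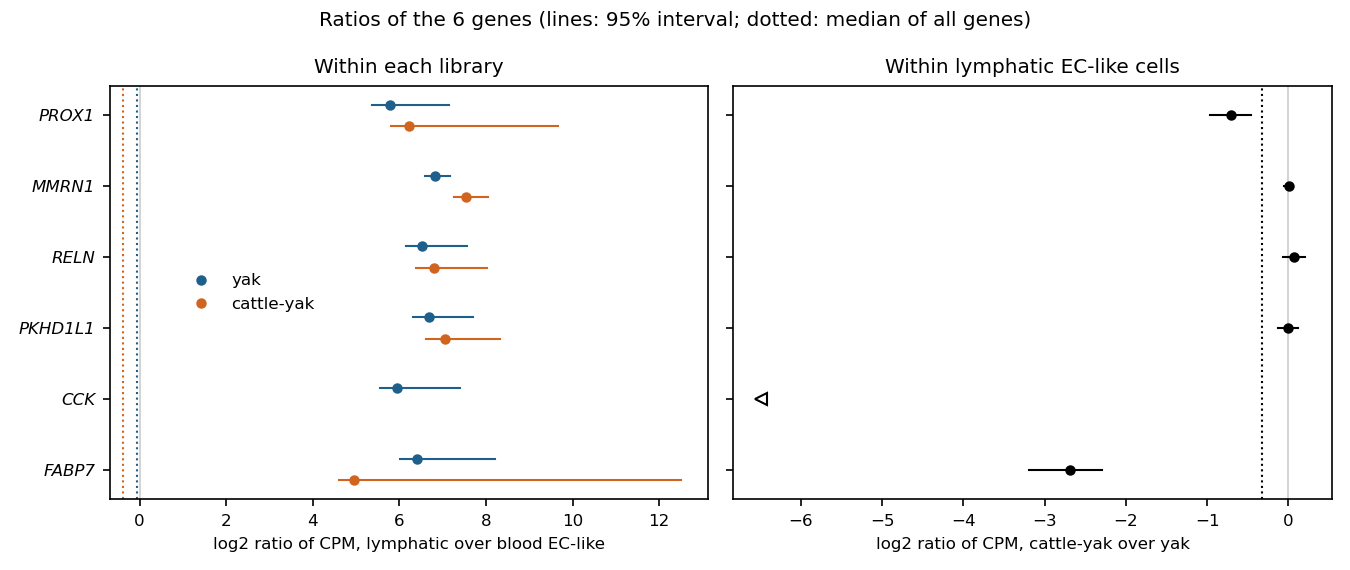
Log2 ratios of the 6 genes (rows), on the left lymphatic over blood EC-like cells in the yak (blue) and the cattle-yak (orange), on the right cattle-yak over yak within lymphatic EC-like cells (x axes, log2 ratio of CPM), with 95% intervals as lines, the median of all genes dotted and an open triangle for the bound of *CCK*. All ratios drawn on the left exceed 4, and on the right *MMRN1*, *RELN* and *PKHD1L1* lie at 0 while *FABP7* and *CCK* lie far to the left.

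Shares of single cells with a UMI were compared after each cell had been thinned to 1000 UMIs, with T/NK-like cells as the class that should lack the genes. *PROX1* was found in 18.9% of thinned yak lymphatic cells (16.1 to 22.0) and in 13.6% of those of the cattle-yak (9.92 to 18.0), against 0.172% and 0.248% of T/NK-like cells, and without thinning in 49.8% and 35.0%. *MMRN1* was found in 84.8% and 89.4%, against 1.66% and 2.32%. *RELN* was found in 35.3% and 40.7%, and *PKHD1L1* in 40.5% and 44.7%.

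The shares followed the levels for *FABP7* also, with 23.0% of yak cells (160 of 697) and 2.32% of cattle-yak cells (7 of 302), above the 0.200% and 0.414% of T/NK-like cells. *CCK* was found in 7.46% of thinned yak lymphatic cells (52 of 697; 5.62 to 9.67) and in 0 of 302 cattle-yak cells, which allows up to 1.21%. In T/NK-like cells of the yak the share was 0.458%. Median depths were 1941 and 2390 UMIs in T/NK-like cells before thinning.

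How many of the genes were found in a single lymphatic cell depended on depth. Without thinning, 81.9% of yak and 73.3% of cattle-yak lymphatic cells had UMIs of at least 3 members. In thinned cells, UMIs of at least 3 members were found in 240 of 697 yak cells (34.4%, 30.9 to 38.1) and in 76 of 302 cattle-yak cells (25.2%, 20.4 to 30.5), whereas 0 of 658 and 0 of 703 blood EC-like cells and 1 of 3496 and 1 of 1208 T/NK-like cells did so. No thinned cell carried all 6, and without thinning 42 of 723 yak cells did. *RELN* and *PKHD1L1* met in 117 yak cells, where independence gives 99.5, and in 63 cattle-yak cells, where it gives 55.0. *CCK* met *RELN* in 11 yak cells against 18.4 and *PKHD1L1* in 12 against 21.0, but *PROX1* in 17 against 9.85. The exact binomial intervals included the independence count for *RELN* with *PKHD1L1* in both libraries and for *CCK* with *RELN*. Those of *CCK* with *PKHD1L1* and with *PROX1* missed it narrowly, and whether any pair departs from independence was not tested.

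*CCK* was spread over the lymphatic cells unlike the other genes. Its 774 UMIs came from 100 of 723 yak cells (13.8%), 174 of them from 1 cell, and the 10% of cells with the highest counts held 96.5% of them. For the other 5 genes the highest 10% of cells held 28.8% (*MMRN1*) to 43.3% (*PROX1*) in the yak. The variance of *CCK* over its mean was 10.5 in thinned cells, and between 1.11 and 2.26 for the others.

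The cells that carried *CCK* were taken from the lymphatic class, so other genes describe them and are no separate evidence of their type. Of the 100 cells, 96 had a UMI of *MMRN1* and 97 of *PECAM1*, the gene of an adhesion molecule of endothelium. In the lymphatic cells without *CCK* these shares were 95.3% and 90.2%. *CSF1R*, a receptor gene of macrophages, was found in 2 of the 100 cells and the complement gene *C1QA* in 0. *CCL21*, in contrast, was found in 32 of the 100 cells (32.0%) against 67.3% of the lymphatic cells without *CCK*. The median depth was 5054 UMIs with and 4071 UMIs without *CCK*, so the share of *CCL21* was lower in the deeper cells.

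**Figure D3:**
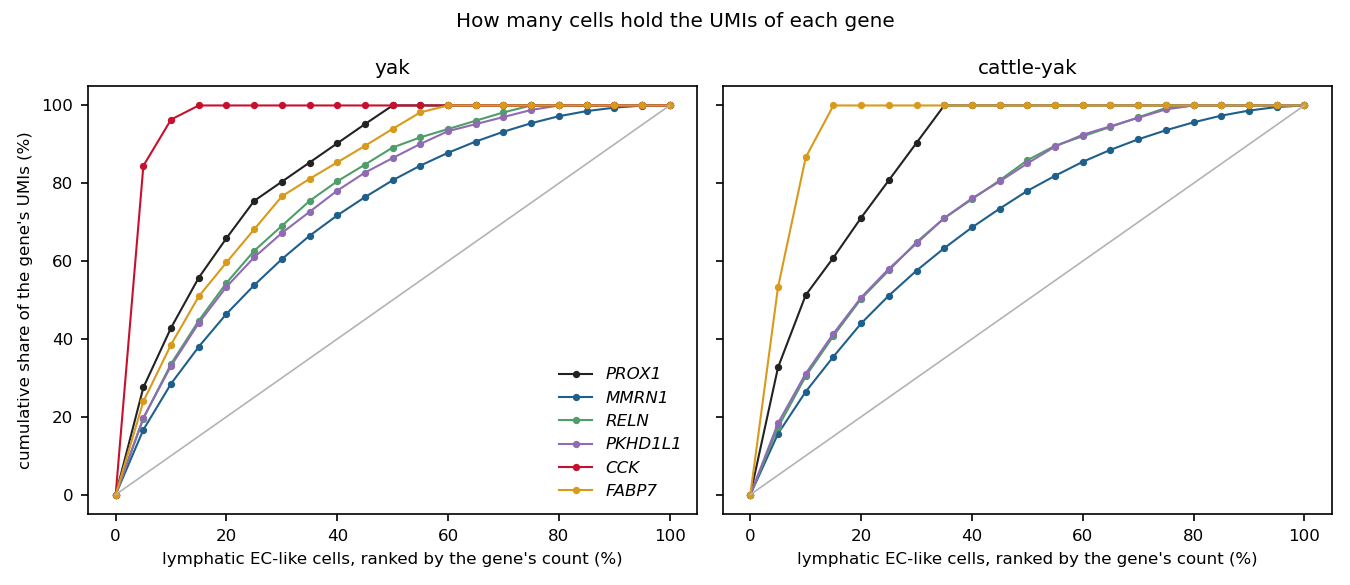
Cumulative share of a gene's UMIs (y axis, %) over lymphatic EC-like cells ranked from the highest count (x axis, % of cells), for the yak (left) and the cattle-yak (right), with the diagonal as an even spread. The *CCK* line reaches 100% at 15% of the yak cells and is missing in the cattle-yak, where the *FABP7* line, from 45 UMIs, reaches 100% at 15%.

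Clustering the lymphatic class again, without the members, gave 6 yak sub-clusters of 22 to 236 cells, and *CCK* was uneven over them. In the sub-cluster of 53 cells *CCK* was at 1609 CPM (1447 to 1784) with a UMI in 24 cells, and in that of 145 cells at 392 CPM (353 to 433) with a UMI in 54 cells. In the largest pair, of 215 and 236 cells, it was at 15.9 and 17.9 CPM. Single cells weighed on these levels, since the cell with 174 UMIs lay in the sub-cluster of 53 cells and a cell with 61 UMIs in that of 145 cells. Without its highest cell each stood at 849 CPM (731 to 981) and 329 CPM (294 to 367). At a resolution of 1 a sub-cluster of 60 cells held *CCK* at 1402 CPM, or 732 CPM without the highest cell, and at 0.25 no small sub-cluster high in *CCK* was set apart, the levels of the larger pair being 317 and 219 CPM.

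The sub-cluster of 53 cells was also set apart by genes that took part in the clustering and are given as its description. Among its leading genes were *FOXC2*, a transcription factor gene of lymphatic valves, at 31.4 CPM from 7 UMIs, against 3.66 and 4.22 CPM in the largest pair, and *DSP*, the gene of a cell junction protein, at 600.4 CPM against 70.8 and 17.9 CPM. Of the 134 *DSP* UMIs of the 53 cells 1 cell held 42, and without it the level was 422 CPM (340 to 518). *GJA4*, which encodes a connexin of valves and arteries, was at 892 CPM against 277 and 318 CPM. The capillary chemokine gene *CCL21* was at 502 CPM against 2082 and 2106 CPM, and *FLT4* at 13.4 CPM from 3 UMIs against 91.6 and 54.9 CPM. The sub-cluster of 145 cells lay between these groups in *GJA4* (583 CPM, 536 to 634), *CCL21* (728 CPM) and *DSP* (128 CPM). It had 1 UMI of *FOXC2*, and its *FLT4* level of 55.5 CPM was within the range of the largest pair. A sub-cluster of 22 cells with muscle genes had *CCL21* at 520 CPM and *FLT4* at 32.5 CPM from 5 UMIs. Its intervals for both genes overlapped those of the 53 cells.

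Among the members, *PROX1* was highest in this sub-cluster, at 376 CPM (300.2 to 466) against 209 (179 to 243) and 183 CPM (156 to 212) in the largest pair. *RELN*, which is listed with capillary genes, was at 309 CPM (241 to 391) against 795 (735 to 859) and 474 CPM (431 to 520). In the sub-cluster of 145 cells *PROX1* was at 269 CPM (237 to 304) and *RELN* at 378 CPM (340.1 to 419), with intervals that overlapped those of the 53 cells, and *RELN* was lower still, at 241 CPM, in the 22 cells with muscle genes. *MMRN1* was at 2375 CPM against 3906 and 2893 CPM, and *FABP7* at 318 CPM against 216 and 263 CPM.

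The cattle-yak class gave 4 sub-clusters of 19 to 115 cells, and *CCK* and *FOXC2* had 0 UMIs in all of them. *FABP7* was low throughout, at 16.9 to 50.8 CPM. *GJA4* was at 88.5 to 326 CPM and *CCL21* at 4564 to 8766 CPM. In the yak, 2 sub-clusters carried at least 3 enriched markers of another class, 22 cells with muscle genes and 52 cells with T/NK genes, and in the cattle-yak 19 cells carried 4 stromal genes. Without these cells the yak levels of *PROX1*, *MMRN1*, *PKHD1L1* and *CCK* were 233, 3074, 619 and 259 CPM, and the ratios to blood endothelium moved by less than their intervals.

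**Figure D4:**
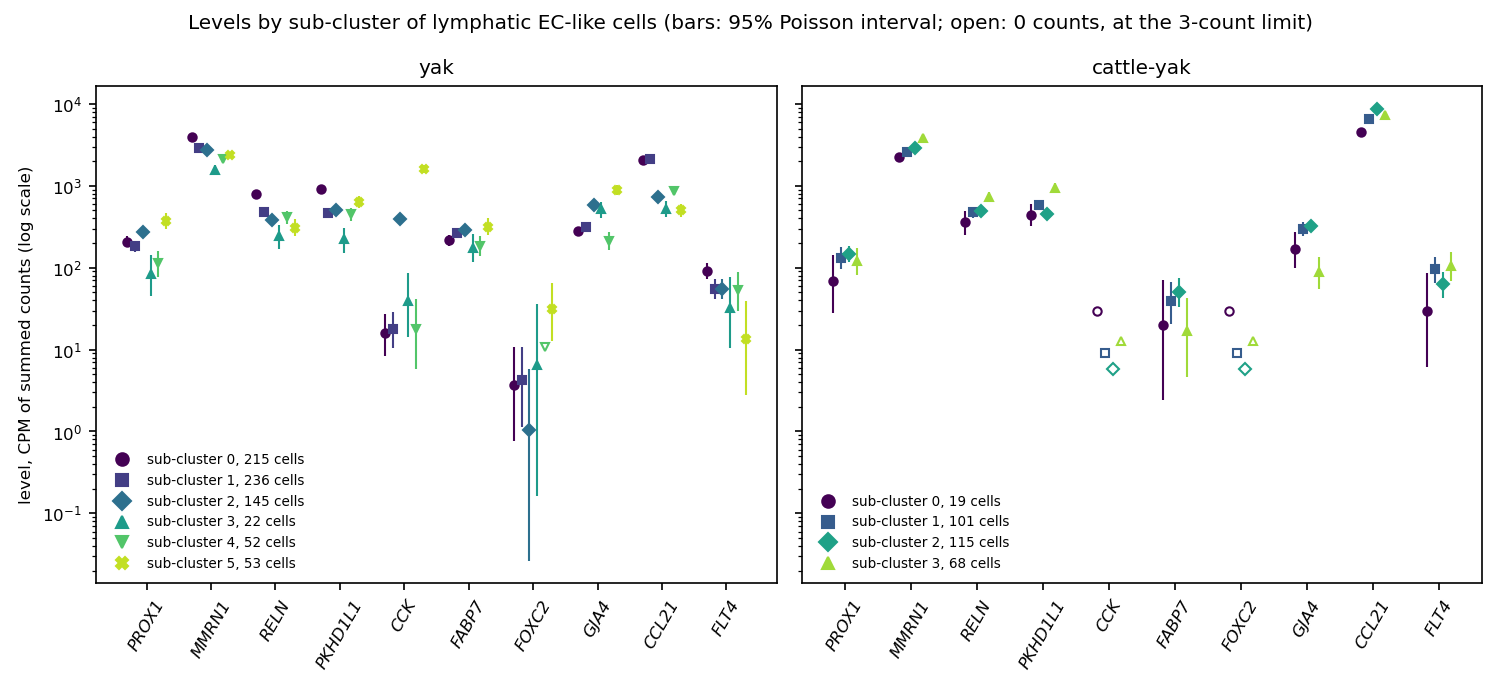
Level (y axis, CPM on a log scale) of the 6 genes and of *FOXC2*, *GJA4*, *CCL21* and *FLT4* in sub-clusters of lymphatic EC-like cells of the yak (left) and the cattle-yak (right), with 95% Poisson intervals as bars and open symbols at the 3-count limit for 0 UMIs. In the yak the sub-cluster of 53 cells (number 5) is highest in *CCK*, *PROX1*, *FOXC2* and *GJA4* and lowest in *CCL21* and *FLT4*. Its intervals of *FOXC2*, *CCL21* and *FLT4* overlap those of the 22 cells with muscle genes (number 3). In the cattle-yak all *CCK* and *FOXC2* symbols are open.

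Among the named classes other than the lymphatic one, *CCK* was highest in macrophage-like cells. Macrophage-like cells of the yak held 288 *CCK* UMIs in 56 of 215 cells, 364 CPM (323 to 408), above the lymphatic level of the same library. After thinning, 19.3% of these cells had a UMI (13.9 to 25.6). The count was spread over cells, with 19 UMIs in the highest cell and at least 10 in 10 cells.

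The macrophage-like cells with *CCK* carried few lymphatic transcripts. Of the 56 cells, 49 had *CSF1R* and 2 had *MMRN1*. At the ratio of *CCK* to *MMRN1* found in lymphatic cells, the 15 *MMRN1* UMIs of the class would come with 1.17 *CCK* UMIs, a mean over lymphatic cells that carried *CCK* unevenly. *C1QA* was found in 23.2% of the cells with *CCK* and in 61.0% of those without. In the cattle-yak 101 macrophage-like cells held 33 *CCK* UMIs in 4 cells, 29 of them in 1 cell, and after thinning 1 of 97 cells had a UMI. The level was 74.5 CPM (51.3 to 105), of which 1 cell made up 87.9%.

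The other members were followed outside the class in the same way, by the count that their ratio to *MMRN1* in lymphatic cells would give. A member is said to lie above the ratio where the Poisson interval of its own count lies above that count. The count at the ratio was taken as exact, although it rests on *MMRN1* UMIs that were few in some classes, such as 4 in cattle-yak SPC-like cells. What part free RNA had in any of these counts was not tested. T/NK-like cells lay above the ratio for some members too, with 34 *CCK* UMIs against 12.04 and 26 *FABP7* UMIs against 13.2 in the yak, and 9 *FABP7* UMIs against 1.84 and 41 *PKHD1L1* UMIs against 28.2 in the cattle-yak. In the yak *CCK* lay above it in SPC-like cells (10 UMIs against 0.704) and pericyte-like cells (8 against 1.33) as well, and in MC-like cells, named after muscle genes (12 against 2.82). *PROX1* exceeded that count in SPT-like cells of the yak, with 55 UMIs against 7.60. In the cluster of 128 cells led by *RNF151* and *HMGB4*, a gene of spermatid chromatin, 32 *PROX1* UMIs in 25 cells stood against 1.48 at the lymphatic ratio, a level of 61.3 CPM (41.9 to 86.5). *RELN* had 43 UMIs in 26 of these cells against 3.40, at 82.4 CPM (59.6 to 111). Some clusters without a name lay above the ratio too, with 30 *CCK* UMIs against 10.6 in the yak cluster led by *TNNI1* and *KRT18*. The cattle-yak cluster led by *NRK* and *ICAM5* had 49 *RELN* UMIs against 6.93 and 16 *FABP7* UMIs against 0.504. No member lay above it in the cattle-yak cluster led by *TNNI1* and *CYP11A1*.

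Cells above the depth limits are left out of the class levels above. Their levels of *PROX1* and *RELN* were like those of kept cells in the cluster led by *RNF151* and *HMGB4*, but not in every class. The 8 such yak lymphatic EC-like cells had *PROX1* at 409 CPM (321 to 513) and *RELN* at 304 CPM (229 to 395), against 216 and 498 CPM in kept cells. The 184 such yak SPG-like cells had *MMRN1* at 10.6 CPM, against 132 CPM in kept cells. In yak SPC-like cells above the limits *CCK* was found in 18 of 74 cells of the cluster led by *LHX1*, at 9.72 CPM. In the cluster led by *RAD51AP2* it was found in 4 of 52 cells, at 17.8 CPM, against 13.6 CPM in kept SPC-like cells. When the upper limits were dropped, 94 additional cells of the cluster led by *RNF151* and *HMGB4*, at a median of 33216 UMIs, had *PROX1* in 65 cells (69.1%; 54.2 CPM, 46.7 to 62.5) and *RELN* in 75 cells (79.8%; 87.5 CPM, 77.9 to 97.9), with *MMRN1* in 15. The kept cells of that cluster had a median of 2826 UMIs. No cattle-yak cluster was SPT-like, so the pattern could not be looked for there.

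*RELN* was also counted in spermatocytes and stroma of both libraries. In SPC-like cells it had 38 UMIs in the yak, against 1.53 at the lymphatic ratio, and 21 in the cattle-yak, against 0.71, at 51.9 CPM (36.7 to 71.2) and 35.4 CPM (21.9 to 54.2). In stromal-like cells it had 115 UMIs against 29.9 and 103 against 7.28, at 30.5 and 26.4 CPM, and in pericyte-like cells 27 against 2.89 and 18 against 3.73. Deep SPG-like cells above the limits had *RELN* in 88 of 184 yak cells (47.8%) and 90 of 200 cattle-yak cells (45.0%), while *MMRN1* was found in 17 and 21 of them. All of these levels were below the lymphatic level of the same library.

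*PKHD1L1* was seen in the same deep SPG-like cells, in 51 of 184 yak and 83 of 200 cattle-yak cells, at 17.4 and 23.6 CPM. In SPC-like cells of the cattle-yak it had 12 UMIs against 0.794 at the lymphatic ratio. *FABP7* exceeded its ratio in stromal-like cells, with 49 UMIs against 15.1 in the yak and 26 against 0.53 in the cattle-yak, 21 of these in the cluster led by *SERPINF1* and *CHGA*. In macrophage-like cells *FABP7* had 0 UMIs in both libraries.

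**Figure D5:**
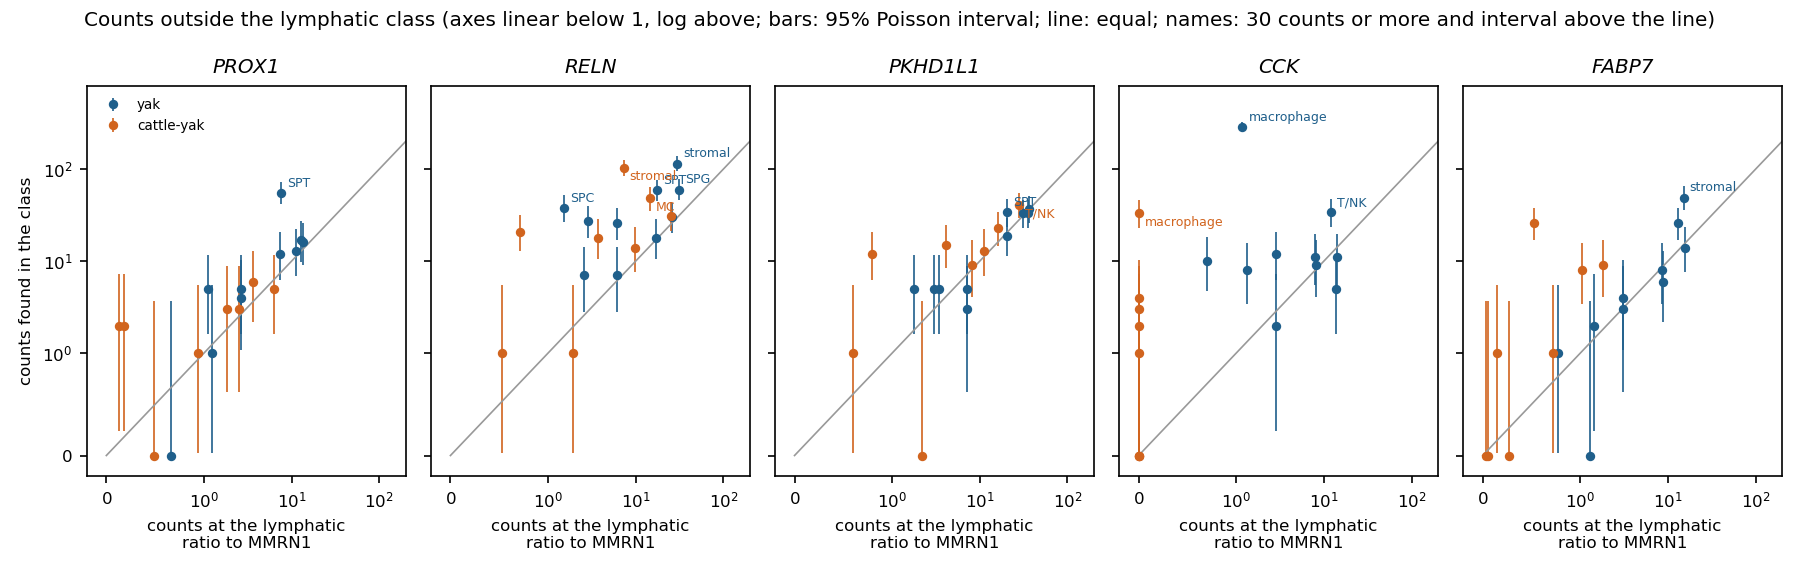
UMIs found in each class other than the lymphatic one (y axis) against the UMIs that the class's *MMRN1* count would carry at the lymphatic ratio (x axis), for 5 genes in the yak (blue) and the cattle-yak (orange), with 95% Poisson intervals as bars and equality as a line. Axes are linear below 1 and logarithmic above. Points with many UMIs whose interval lies above the line carry their class, among them *CCK* in macrophages, *PROX1* in spermatids and *RELN* in SPC-like and stromal cells. Points with fewer UMIs carry no class, also where they lie far above the line.

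Every UMI of the members was accounted for. Of the kept UMIs in the yak, the lymphatic class held 89.3% for *MMRN1*, 88.3% for *PKHD1L1*, 85.6% for *FABP7*, 82.1% for *PROX1*, 77.1% for *RELN* and 63.9% for *CCK*. In the cattle-yak these shares were 88.6%, 84.2%, 40.9%, 85.7%, 66.3% and 0%. Cells outside the limits held from 96 UMIs of *FABP7* to 1040 of *MMRN1* in the yak, and of 1207 yak *PROX1* UMIs 292 were in cells above the depth limits.

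The genes whose levels over 20 points, each a named class of at least 50 cells in 1 library, were most like those of the members were found by Pearson's r of log2(CPM + 1) over 12301 genes, as a description without a test, since the points share libraries. *SCN3A*, a sodium channel gene, was most like *MMRN1* (r = 0.967), *PROX1* (0.900) and *PKHD1L1* (0.898). *KLHL4* was next for *MMRN1* (0.933) and *FABP7* (0.874), and *FLT4* followed for *MMRN1* (0.921). Both *KLHL4* and *FLT4* belong to the marker list that named the lymphatic class, so their likeness to the members is no separate evidence. *RELN* and *PKHD1L1* were most like each other among the members, at 0.895, and *FGL1* and *TC2N* followed *RELN*. *MSMP* was next for *PROX1* (0.876), and the homeobox gene *HOXA6* was first for *FABP7* (0.895).

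Among the genes most like *CCK* were ENSBGRG00000016265 (0.830) and *S100A12*, a gene of granulocytes and monocytes (0.774). Neither was among the genes most like the other 5 members.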

How the data were processed

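One droplet library each of yak and cattle-yak testis was used. The authors deposited whole-number counts of molecules (UMIs) in Cell Ranger matrices without normalization. The file headers name Cell Ranger 5.0.0, the submitters' notes 2.1.1. Both libraries were counted on the same yak annotation, and what this does to counts of cattle alleles was not tested. No sequence or position is given, since the reference table at hand is of another assembly.

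The 6 members, the gene lists and the markers were chosen with earlier results of these data known. Kept cells had gene and UMI totals no more than 2 SD from the library's mean and under 30% mitochondrial UMIs. Scanpy 1.11.5 scaled each cell to 10000 UMIs, took 2000 variable genes without the members, 30 principal components and 15 neighbours, and Leiden clusters (igraph 0.11.9) at resolution 1, or 0.5 for sub-clusters, with seed 0. To name a cluster, 3 markers had to be enriched, that is found in 10% of its cells and, on the log2 scale, 1 or more above all remaining cells. Endothelial clusters were split by whether the lymphatic or the blood list had more of them. A cluster with more genes of another class among its top 10, or with few UMIs and no marker among its top 10, had no name. Python 3.11.15, numpy 2.4.6, scipy 1.17.1, pandas 2.3.3, scikit-learn 1.9.0 and matplotlib 3.10.9 were used.

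Counts were summed per class and library and scaled to CPM, with exact Poisson intervals. Log2 ratios had 1 CPM added to each side and exact conditional intervals of the plain ratio, and shares had exact binomial (Clopper-Pearson) intervals, all at 95%. UMI counts of 0 stayed at 0 in the levels and in the ratios with 1 CPM added. A limit of 3 counts gave the bound of *CCK* between libraries and the place of 0 UMIs in the figures of levels. Shares were taken in cells thinned to 1000 UMIs, which left 697 of 723 and 302 of 303 lymphatic cells. Genes with at least 50 UMIs in both groups together were ranked. The ratio step was tested on simulated data over 7606 genes of the yak lymphatic and blood classes. Of 200 genes changed 4-fold 100% were recovered, and 7 of 7406 unchanged genes were called as well. No test was made and no p-value is given, since cells of 1 library are not replicates.

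Genes named are the members, the 3 genes most like each of them (among genes with at least 100 UMIs; 1 of them is not reported here), and genes of the lists past a log2 ratio of 1 or neighbouring in the pathway. The leading genes of clusters, *DSP*, and *CSF1R*, *C1QA* and *PECAM1* within cells were named after their values were seen. Scrublet marked 0 of 11991 yak barcodes, so it did not work in that library, and 251 cattle-yak barcodes (2.81%). No barcode was taken out for it. Alternatives changed the cell filters, the clustering, the thinning, the added CPM, the weighting of cells and the doublet filter. Leaving out the mixed sub-clusters or the shared barcodes, both treatments of the *BMX* cluster, and *CCK* and *DSP* levels of sub-clusters without the highest cell were added after seeing the data.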

Additional observations from a re-analysis of the deposited data

How the results depend on the processing

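No ratio of the 6 members past 1 on the log2 scale changed direction under the alternatives run. Genes of the lists were recomputed only for the blood class, where *CPE* in the yak went from 1.24 to -0.58 with the *BMX* cluster and *GJA4* in the cattle-yak from -1.11 to 0.38 without it. No paired analysis was possible because the labels give no replicate numbers and each group is 1 library. The cause of the shifts below was not tested. Log2 ratios of lymphatic to blood endothelium in the yak moved as follows. With 10 CPM added they were 4.12 for *PROX1*, 6.40 for *MMRN1*, 5.14 for *RELN*, 5.34 for *PKHD1L1*, 4.23 for *CCK* and 4.45 for *FABP7*, by construction of the larger constant. With the *BMX* cluster counted as blood endothelium they were 5.32, 6.06, 5.47, 5.76, 5.53 and 5.70, and with 50 principal components, where that cluster also got the name, 5.26, 6.28, 5.76, 6.02, 5.52 and 5.90. With 1000 variable genes *RELN* was at 5.90, *PKHD1L1* at 6.17, *CCK* at 5.30 and *FABP7* at 5.92. At resolution 0.5 *MMRN1* was at 6.53, *RELN* at 5.86 and *PKHD1L1* at 6.02. *RELN* was at 6.04 below 20% mitochondrial share, *CCK* at 4.94 with every cell weighted equally, and *MMRN1* at 7.21 with 20 principal components, 8.39 with both libraries clustered together and 8.01 without the 10% highest Scrublet scores. In the cattle-yak, 10 CPM gave 3.72 for *PROX1*, 6.89 for *MMRN1*, 5.28 for *RELN*, 5.47 for *PKHD1L1* and 2.23 for *FABP7*. *MMRN1* was at 8.41 without the highest Scrublet scores, *PKHD1L1* at 6.02 with 50 principal components and 5.99 with 1000 variable genes, and *FABP7* at 4.30 with cells weighted equally.

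Between the libraries, CPM without mitochondrial genes gave 0.13 for *MMRN1*, 0.12 for *PKHD1L1* and a bound of -6.37 for *CCK*. Below 20% mitochondrial share, with 104 cattle-yak lymphatic cells left, *PKHD1L1* was at -0.26 and the bound of *CCK* at -5.35. That bound was -6.61 without the upper limits, and clustering both libraries together gave -7.00 from 1 cattle-yak UMI. The share of cells with at least 3 members was 13.3% and 5.61% at 500 UMIs, 66.9% and 52.6% at 2000 UMIs, and 81.9% and 73.3% without thinning, in the yak and the cattle-yak, and 15.5% in the cattle-yak below 20% mitochondrial share. The lymphatic class held 612 to 730 yak cells and 104 to 319 cattle-yak cells. *CCK* and *FABP7* had 0 and 45 UMIs in the cattle-yak class.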
